A study of Mus musculus with 4 samples.

Results

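The genes described here are the ligands, receptors, antagonists and effectors of Wnt signalling in primary mouse pancreatic acinar cells. They are the 56 rows whose symbol names a Wnt ligand, a Frizzled receptor, Lrp5 or Lrp6, a secreted antagonist (Sfrp, Dkk or Wif1), an R-spondin, Lgr4 to Lgr6, the ligases Rnf43 and Znrf3, an Axin, β-catenin (Ctnnb1) or a TCF/LEF factor, out of 23282 rows. All cells came from C57BL/6J mice, grew with 25 ng/ml recombinant human epidermal growth factor and carried an adenovirus at a multiplicity of infection of 100 for 36 h. In the ERRγ libraries it encoded estrogen-related receptor γ (ERRγ, gene Esrrg), an orphan nuclear receptor, and in the control libraries it encoded green fluorescent protein (GFP). There were 2 ERRγ and 2 GFP libraries, with 10480878 and 10645277 counts for ERRγ and 10105604 and 11012351 for GFP, read near transcript ends. The labels name no separate animals or cultures behind the libraries of a group, so p-values measure the spread between these libraries, which may be technical. Every library came from cells that met an adenovirus, and cells without a virus were not analysed here.

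Wnt proteins are secreted lipid-modified ligands that bind a Frizzled receptor together with Lrp5 or Lrp6. Receptor engagement stops a destruction complex built on Axin from degrading β-catenin, which then enters the nucleus and acts with TCF/LEF factors. R-spondins bind Lgr4, Lgr5 or Lgr6 and remove the ligases Rnf43 and Znrf3 from the membrane, which leaves more Frizzled at the surface, whereas Sfrp and Wif1 proteins bind Wnt and several Dkk proteins block Lrp5 and Lrp6. In the adult exocrine pancreas the pathway is known for its part in regeneration and in acinar cells that lose their differentiated state.

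The promoters of the 2 members that passed the test, Lgr4 and Sfrp2, are shown. ERRγ binds DNA at a known half-site, AAGGTCA, with an extended form TNAAGGTCA that contains it. A Tcf7 window was added because, of the members' windows, it alone held the half-site. Each window runs from 250 bases before to 50 bases after a RefSeq transcription start (GRCm38.p6), and capitals mark the extended form, which contains the half-site, on either strand. Lgr4 is chr2:109917397-109917696 on the plus strand, Sfrp2 is chr3:83766071-83766370 on the plus strand, and Tcf7 is chr11:52282546-52282845 on the minus strand, 1 of 2 Tcf7 windows.
Lgr4: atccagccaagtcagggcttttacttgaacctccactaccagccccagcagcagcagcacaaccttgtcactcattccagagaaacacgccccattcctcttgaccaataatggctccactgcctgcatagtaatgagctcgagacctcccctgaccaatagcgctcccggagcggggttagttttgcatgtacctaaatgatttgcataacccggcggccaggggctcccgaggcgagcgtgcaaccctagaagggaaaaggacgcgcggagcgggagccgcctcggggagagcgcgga
Sfrp2: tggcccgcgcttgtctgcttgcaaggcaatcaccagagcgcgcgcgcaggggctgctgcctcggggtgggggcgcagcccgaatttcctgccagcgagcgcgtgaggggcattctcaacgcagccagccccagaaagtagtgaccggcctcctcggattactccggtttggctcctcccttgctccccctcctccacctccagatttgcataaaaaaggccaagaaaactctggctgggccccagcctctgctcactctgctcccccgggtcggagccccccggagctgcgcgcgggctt
Tcf7: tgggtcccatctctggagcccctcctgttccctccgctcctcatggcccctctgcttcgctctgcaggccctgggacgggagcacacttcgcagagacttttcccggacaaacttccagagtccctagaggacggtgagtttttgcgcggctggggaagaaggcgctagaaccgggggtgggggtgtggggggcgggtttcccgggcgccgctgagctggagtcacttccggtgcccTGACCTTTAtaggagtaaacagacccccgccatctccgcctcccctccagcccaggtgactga
The Tcf7 window holds the extended half-site in reverse orientation, 13 to 5 bases before the start. The windows of Lgr4 and Sfrp2 hold neither form. RefSeq windows were found for 37 of the 56 members, and these members have 47 windows. AAGGTCA lay in 1 of the 47, that of Tcf7, where 4.72% of all 32851 windows hold it and 1.28% hold the extended form. The TCF/LEF core CTTTGAT, searched on either strand, lay in 2 of the 47 windows, of Wnt5b and Wnt11, and in 3.73% of all windows. A match is a string of letters in the window and does not show binding.

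The 12 acinar markers summed to 94.1 and 101 CPM with ERRγ and 97.4 and 51.6 CPM with GFP, far below the ductal markers. Of the 10 acinar markers tested, 3 had a log2 fold change above zero and 7 below, with a median of −0.09. Only 1 passed and rose: Prss2, a trypsinogen gene, had 157 and 271 counts with ERRγ, against 37 and 24 counts with GFP (adjusted p = 0.00905). Ctrb1, which encodes chymotrypsinogen, had 512 and 547 counts with ERRγ, against 460 and 354 counts with GFP, and Ptf1a, a master regulator of acinar fate, was the 1 acinar marker at 0 counts throughout. The 10 ductal markers summed to 7706.5 and 9088 CPM with ERRγ and 11712 and 11385 CPM with GFP (Cftr rose, and Krt7, Krt8 and Muc1 fell), whereas the 8 endothelial markers summed to 12.6 to 23.1 CPM. The 10 immune markers summed to 50.1 and 72.5 CPM with ERRγ and 96.7 and 92.1 CPM with GFP. Of 4 immune markers tested, Cd14, a receptor for bacterial lipopolysaccharide, was the 1 that fell, with 473 and 591 counts with ERRγ, against 843 and 904 counts with GFP (adjusted p = 0.0488). The pan-leukocyte marker Ptprc had 1 count in all. Islet markers summed to 55.3 and 15.8 CPM with ERRγ and 216 and 31.0 CPM with GFP. The mesothelial markers Upk3b and Nkain4 had no count. Msln, which ductal cells can also express, had 3638 and 3900 counts with ERRγ, against 4332 and 5929 counts with GFP. Other mesothelial markers were found at low counts. Upk1b was absent from both ERRγ libraries but reached 13 and 7 counts in GFP libraries 1 and 2. Wt1 ran at 15 and 1 in the ERRγ pair, then 15 and 5 in the GFP pair. Gpm6a ran at 0 and 17, then 6 and 4. Lrrn4 and Krt5 stayed at 2 counts or fewer in every library. Upk1b and Gpm6a were not tested. The part of these cells in the members' values was not tested. In bulk RNA, fewer cells of a type and less RNA per cell cannot be told apart.

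With ERRγ, 2 of the 31 tested members rose and none fell. Lgr4, an R-spondin receptor, averaged 20.2 ± 0.204 CPM (counts relative to a library size scaled by the trimmed mean of M-values, TMM) with ERRγ and 10.7 ± 0.986 CPM with GFP (SD, n = 2 each). Sfrp2, a secreted Wnt antagonist, averaged 2.45 ± 0.951 CPM with ERRγ and 0.288 ± 0.0266 CPM with GFP. The 2 calls are 6.45% of the tested members, near the 6.84% of all 13070 tested genes that were called (5.06% higher and 1.78% lower). At an unadjusted p under 0.05 there were 8 members, 3 higher and 5 lower, or 25.8%, where 23.1% of all genes met that bound. The groups did not overlap in 19 of 31 members (61.3%), 7 higher and 12 lower, where 54% of all genes did not overlap. The median log2 fold change of the tested members was −0.10, against −0.01 for all genes tested. Of the 56 members, 37 had 10 or more counts in some library. Those were the 31 tested members and Wnt2, Wnt2b, Fzd10, Sfrp5, Rspo1 and Axin2; 14 more had fewer counts, and Wnt3a, Wnt8a, Dkk1, Sfrp4 and Wif1 had none, which allows up to 0.268 to 0.307 CPM in a library.

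**Figure D1:**
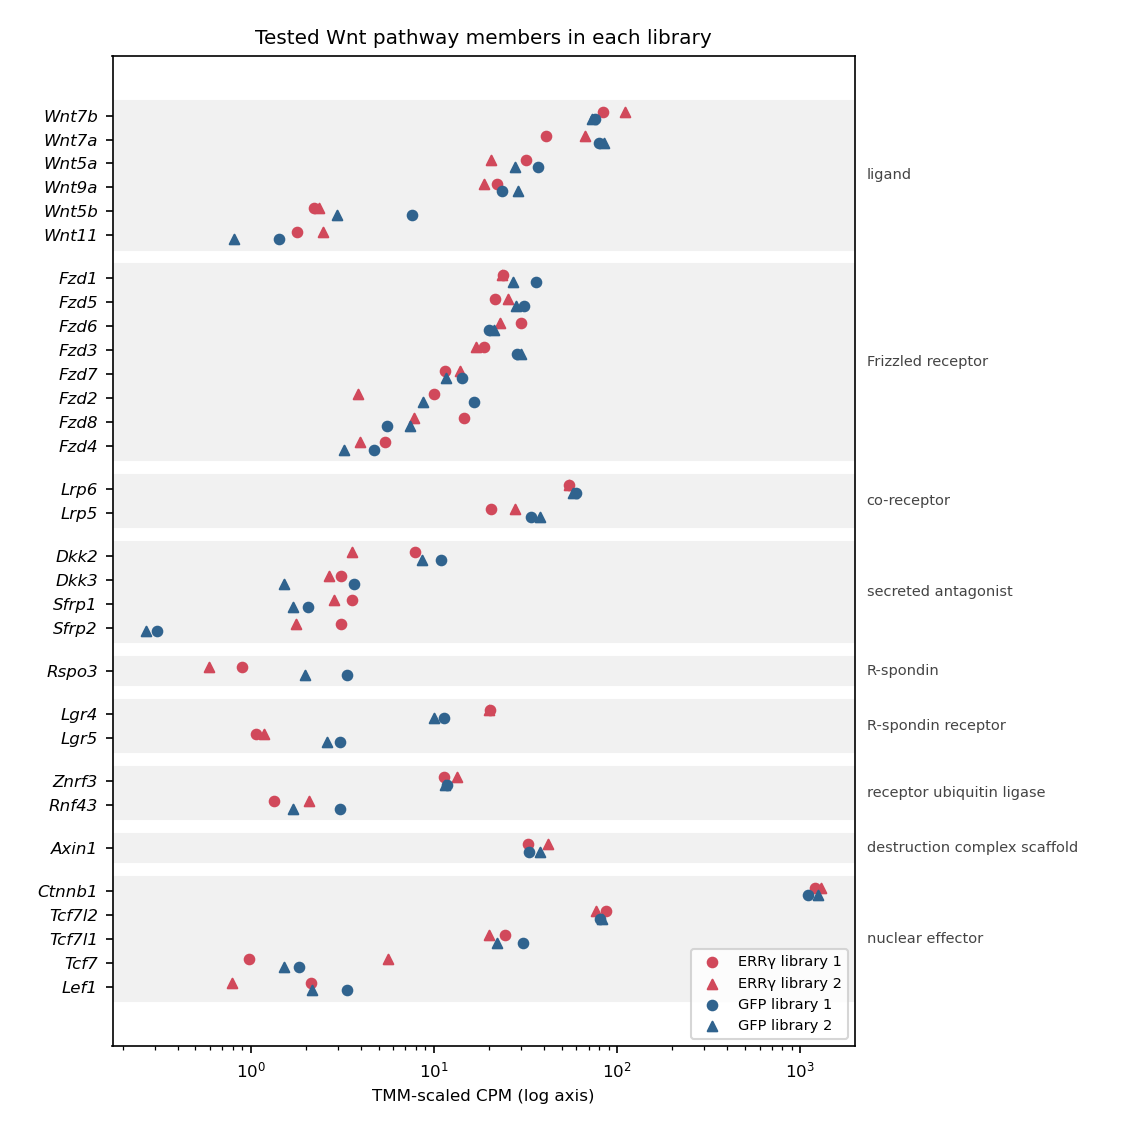
Level of each tested member in the 4 libraries, as TMM-scaled CPM on a log axis, grouped by role; ERRγ in red, GFP in blue, circles for library 1 and triangles for library 2. Both ERRγ points of Lgr4 (20.3 and 20.1 CPM) lie to the right of both GFP points (11.4 and 9.96 CPM), and those of Lgr5 lie to the left.

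**Figure D2:**
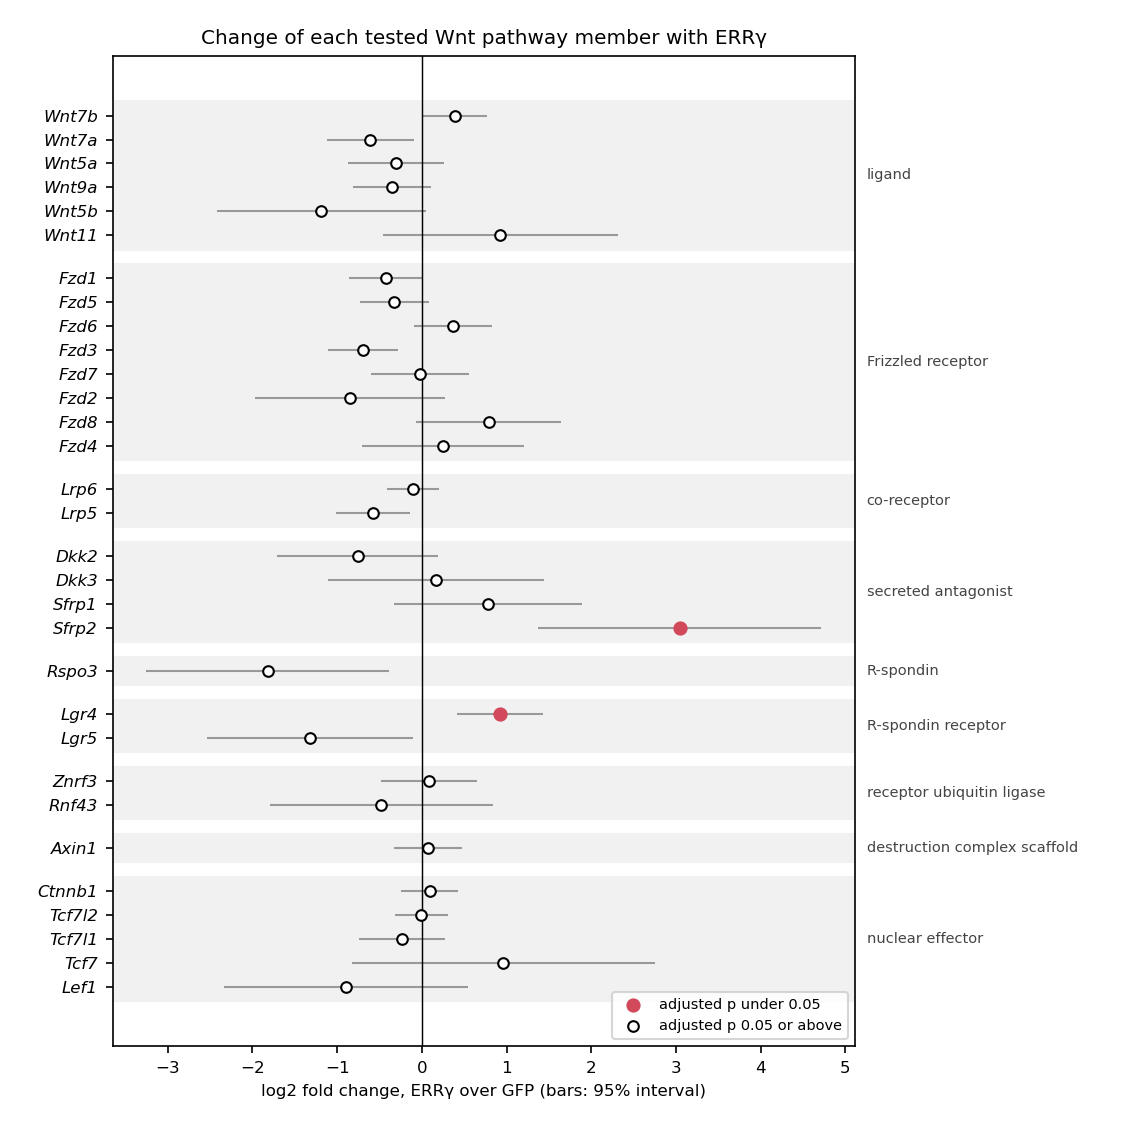
Log2 fold change of each tested member, ERRγ over GFP, with its 95% interval from edgeR's quasi-likelihood fit. Filled red points are the 2 members with an adjusted p under 0.05, Lgr4 (0.92) and Sfrp2 (3.05); the open points have larger adjusted p-values.

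Among the ligands no gene passed the test, and Wnt7b and Wnt7a, close relatives within the family, held most of the counts. Wnt7a and Wnt7b together made up 66.9% (95% exact binomial interval, 64.8 to 68.9) and 79.1% (77.4 to 80.7) of ligand counts in ERRγ libraries 1 and 2, against 68.2% (66.2 to 70.1) and 71.5% (69.7 to 73.3) in GFP libraries 1 and 2. In this assay reads come from near the transcript end, so counts were not divided by length. Wnt7b had 83.7 and 111 CPM with ERRγ, against 76.2 and 72.6 CPM with GFP (log2 fold change 0.39 with an SE of 0.17, adjusted p = 0.211). Wnt7a had 41.0 and 67.0 CPM with ERRγ, against 79.5 and 84.9 CPM with GFP (log2 fold change −0.61 with an SE of 0.22, adjusted p = 0.150). Both ERRγ libraries were above both GFP libraries for Wnt7b and below both for Wnt7a, and the ERRγ libraries lay further apart than the GFP libraries for either gene. The Wnt7b gene shares exonic bases with AU022754 on the opposite strand, and whether the counting used strand is not given in the sources used here.

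Set against each other within a library, the number of Wnt7b counts per Wnt7a count was 2.04 (95% exact counting interval, 1.82 to 2.29) and 1.66 (1.51 to 1.83) with ERRγ, and 0.959 (0.866 to 1.06) and 0.855 (0.778 to 0.940) with GFP. Wnt7b was the more abundant read in both ERRγ libraries and did not exceed Wnt7a in either GFP library. The mean log2 ratio was 0.88 with ERRγ and −0.14 with GFP, a difference of 1.02, with an exact two-sided permutation p = 0.333, the smallest that 4 libraries allow. This pair was chosen after its values were seen. Intervals cover counting error only and leave out the spread between libraries. Reads amplified by PCR are not independent molecules, so the intervals can be too narrow even for counting error.

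**Figure D3:**
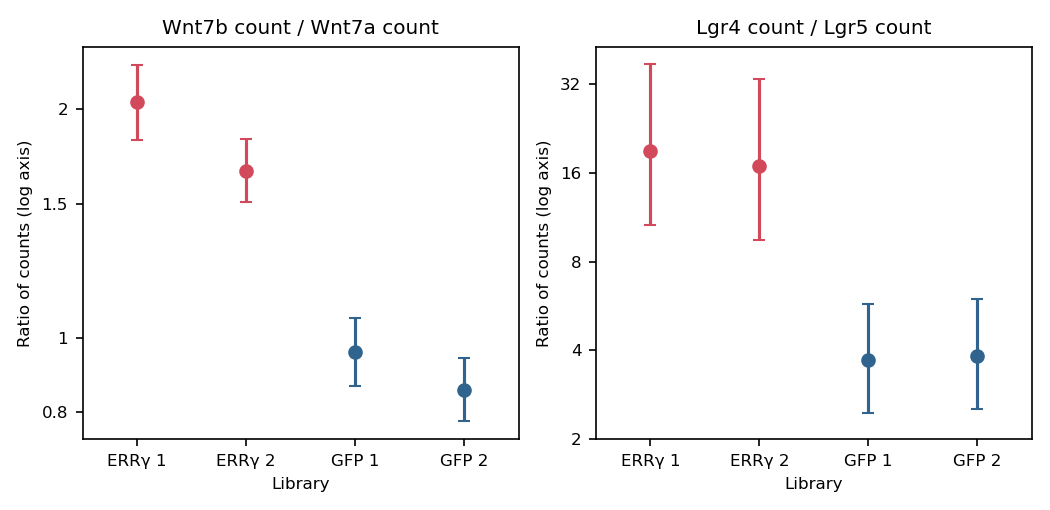
Ratio of Wnt7b to Wnt7a counts (left) and of Lgr4 to Lgr5 counts (right) in each library, on log axes, with 95% exact counting intervals; ERRγ in red, GFP in blue. The ERRγ libraries stand at 2.04 and 1.66 against 0.959 and 0.855 in the GFP libraries on the left, and at 19.0 and 16.9 against 3.70 and 3.83 on the right.

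The other ligands were Wnt5a and Wnt5b, which are known for signalling that does not need β-catenin, Wnt9a and Wnt11. Wnt5a had 31.9 and 20.4 CPM with ERRγ, against 36.8 and 27.8 CPM with GFP, and the groups overlapped (log2 fold change −0.30, adjusted p = 0.510). Wnt5b had 25 and 24 counts with ERRγ, against 74 and 33 counts with GFP (log2 fold change −1.19, 95% interval −2.42 to 0.05, adjusted p = 0.234). Its GFP libraries differed by more than its ERRγ libraries did, so the size of the difference rests on GFP library 1: without it the log2 fold change was −0.37. Wnt9a had 22.1 and 18.8 CPM with ERRγ, against 23.4 and 28.7 CPM with GFP (log2 fold change −0.35, adjusted p = 0.333). Wnt11 had 20 and 25 counts with ERRγ, against 14 and 9 counts with GFP (log2 fold change 0.93, adjusted p = 0.405). Of the ligands too low to test, Wnt10a had 9 counts in each ERRγ library, against 2 counts in each GFP library, a ratio of 4.41 on summed counts (95% counting interval, 1.45 to 17.9). Wnt10a was chosen for a ratio after its values were seen, and the interval leaves out the spread between libraries. Wnt2 had 8 and 5 counts with ERRγ and 14 and 8 counts with GFP. Wnt2b had 4 and 0 counts with ERRγ and 0 and 13 counts with GFP, so that each group held a library without a count. The ligand genes Wnt1, Wnt3 and Wnt8b had at most 6 counts in any library, and Wnt4, Wnt6, Wnt9b, Wnt10b and Wnt16 at most 7.

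Of the 10 Frizzled receptors 8 were tested, and none passed. Fzd3, a receptor known for axon guidance and planar polarity, came nearest, with 18.8 and 17.0 CPM with ERRγ, against 28.3 and 29.8 CPM with GFP (log2 fold change −0.70 with an SE of 0.18, 95% interval −1.11 to −0.29, adjusted p = 0.0584). The groups were well apart and the libraries within each group close together. The adjusted p of Fzd3 was 0.0160 when no filter on low counts was applied, but 0.123 with library totals. With 1 library left out, its log2 fold change was −0.77 to −0.63. Fzd1 had 23.8 and 23.5 CPM with ERRγ, against 36.3 and 27.2 CPM with GFP (log2 fold change −0.42, adjusted p = 0.234), and Fzd5 21.7 and 25.5 CPM with ERRγ, against 31.0 and 28.1 CPM with GFP (−0.33, adjusted p = 0.315). Fzd6, which can restrain β-catenin signalling, had 30.1 and 23.1 CPM with ERRγ, against 20.0 and 21.2 CPM with GFP (log2 fold change 0.37, adjusted p = 0.308). Fzd8 had 14.6 and 7.80 CPM with ERRγ, against 5.52 and 7.45 CPM with GFP (log2 fold change 0.79, 95% interval −0.07 to 1.65, adjusted p = 0.253). For Fzd8, ERRγ library 2 lay close to the GFP libraries: without it the log2 fold change was 1.17, and without ERRγ library 1 it was 0.26. Fzd7 had 11.5 and 13.9 CPM with ERRγ, against 14.2 and 11.7 CPM with GFP (log2 fold change −0.03, 95% interval −0.60 to 0.55), and Fzd4 5.44 and 3.95 CPM with ERRγ, against 4.71 and 3.23 CPM with GFP (0.25, −0.71 to 1.20). Neither interval parts a rise from a fall. Fzd10 had 11 and 1 counts with ERRγ, against 1 and 0 counts with GFP, and Fzd9 5 and 0 counts against 1 and 4.

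The co-receptor Lrp5 had 20.6 and 27.7 CPM with ERRγ, against 34.1 and 37.9 CPM with GFP (log2 fold change −0.58 with an SE of 0.19, 95% interval −1.02 to −0.14, adjusted p = 0.115). Its relative Lrp6 had 55.0 and 54.4 CPM with ERRγ, against 59.4 and 57.7 CPM with GFP (log2 fold change −0.10, 95% interval −0.41 to 0.21, adjusted p = 0.710). Both ERRγ libraries were below both GFP libraries for each co-receptor, by far less for Lrp6 than for Lrp5; the difference between the genes was not tested.

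The secreted antagonist Sfrp2 (chromosome 3, 83766321 to 83774316, plus strand, GRCm38) had 35 and 18 counts with ERRγ, against 3 counts in each GFP library. The GFP libraries were at the floor of 3 counts and both ERRγ libraries were well above it. On summed counts this was 53 with ERRγ and 6 with GFP, a ratio of 8.66 (95% counting interval, 3.73 to 24.7), and edgeR's fit gave a log2 fold change of 3.05 (SE 0.72, 95% interval 1.38 to 4.72, adjusted p = 0.0464; 0.0103 to 0.313 over the alternatives). The call ended without ERRγ library 1 (adjusted p = 0.171), GFP library 1 (0.313) or GFP library 2 (0.290), and with limma-voom (0.0842); the gene was too low for a filter at 5 CPM. Sfrp2 reached 10 counts in the ERRγ libraries alone, so it entered the test through the group in which it was high and had to differ. Sfrp2 is a gene of fibroblasts in many tissues, and of 11 tested fibroblast and stellate markers 0 passed: their summed level was 915 and 666 CPM with ERRγ and 1117 and 692 CPM with GFP, and Col1a1 had 2591 and 1512 counts with ERRγ, against 2388 and 1854 counts with GFP. The part of fibroblasts in the Sfrp2 counts was not tested. Exons of Sfrp2 overlap Gm26771 on the opposite strand, so reads of this neighbour could be among its counts.

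Among the other antagonists, Sfrp5 had 34 and 3 counts with ERRγ, against 0 and 1 counts with GFP, and 1 ERRγ library held nearly all of them. Summed counts gave a ratio of 36.3 (95% counting interval, 6.12 to 1471). It was not tested, since only 1 library reached the minimum of 10 counts. Sfrp1 had 40 and 29 counts with ERRγ, against 20 and 19 counts with GFP (log2 fold change 0.78, adjusted p = 0.379). Dkk2, which binds Lrp5 and Lrp6, had 89 and 36 counts with ERRγ, against 107 and 96 counts with GFP (log2 fold change −0.76, adjusted p = 0.315). The ERRγ libraries lay far apart for Dkk2: without ERRγ library 1 the log2 fold change was −1.45, and without ERRγ library 2 it was −0.30. Dkk3, a divergent family member, had 35 and 27 counts with ERRγ and 36 and 17 counts with GFP, and its groups overlapped (log2 fold change 0.16, adjusted p = 0.898). The classical antagonists Dkk1, Sfrp4 and Wif1 had no count, and Dkk4 had 1 count in GFP library 1.

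The R-spondin receptor Lgr4 (chromosome 2, 109917647 to 110014257, plus strand, GRCm38) had 228 and 203 counts with ERRγ, against 111 and 111 counts with GFP, a 1.895-fold rise (log2 fold change 0.92 with an SE of 0.22, 95% interval 0.42 to 1.43, adjusted p = 0.0461; 0.00777 to 0.267 over the alternatives). The libraries of a group were close together and the groups were apart. The call ended without GFP library 1 (adjusted p = 0.226) or GFP library 2 (0.267), when the spread came from the ERRγ pair alone, and with library totals (0.0604); the log2 fold change was 0.83 to 1.01 when a library was left out. Lgr5, its relative known as a marker of adult stem cells in the gut, had 12 and 12 counts with ERRγ, against 30 and 29 counts with GFP (log2 fold change −1.32 with an SE of 0.53, 95% interval −2.54 to −0.10, adjusted p = 0.184). Lgr5 thus lay on the other side of zero from Lgr4, without passing the test. There were 19.0 (95% exact counting interval, 10.7 to 37.3) and 16.9 (9.48 to 33.3) Lgr4 counts per Lgr5 count with ERRγ, and 3.70 (2.45 to 5.74) and 3.83 (2.52 to 5.98) with GFP. The pair was chosen after its values were seen. Lgr6 had 3 and 0 counts with ERRγ and 6 and 4 counts with GFP.

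Of the R-spondins, the ligands of these receptors, Rspo3 was the 1 with enough counts to test. It had 10 and 6 counts with ERRγ, against 33 and 22 counts with GFP (log2 fold change −1.82 with an SE of 0.62, 95% interval −3.25 to −0.39, adjusted p = 0.127). Both ERRγ libraries were below both GFP libraries, and the interval, which is not adjusted over genes, lay below zero. Rspo3 reached 10 counts in both libraries of the GFP group alone. It thus entered the test through the group in which it was high, so the interval is no independent support. Rspo1 had 5 and 2 counts with ERRγ, against 6 and 10 counts with GFP, Rspo4 6 and 2 counts against 5 and 5, and Rspo2 had 1 count in ERRγ library 2. All 4 R-spondins together had 21 and 11 counts with ERRγ and 44 and 37 counts with GFP. The ligases that R-spondins remove did not pass: Znrf3 had 11.3 and 13.4 CPM with ERRγ, against 11.9 and 11.5 CPM with GFP (log2 fold change 0.08, 95% interval −0.48 to 0.65), and Rnf43 had 15 and 21 counts with ERRγ, against 30 and 19 counts with GFP (−0.48, −1.80 to 0.84).

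The destruction complex scaffold Axin1 had 32.8 and 41.8 CPM with ERRγ, against 33.0 and 37.8 CPM with GFP (log2 fold change 0.07 with an SE of 0.17, 95% interval −0.33 to 0.48, adjusted p = 0.849). Axin2, a scaffold that is itself a widely used β-catenin target gene, had 5 and 3 counts with ERRγ, against 21 and 5 counts with GFP. The ratio on summed counts was 0.302 (95% counting interval, 0.118 to 0.686), but GFP library 1 held most of these reads and GFP library 2 had as many as ERRγ library 1, so no difference beyond the spread between libraries can be read from it. Axin2 was too low to test.

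β-catenin itself, Ctnnb1, had the highest counts of all members, with 13464 and 13187 in the ERRγ libraries and 10760 and 13912 in the GFP libraries, which is 1252 ± 71.7 CPM with ERRγ and 1175 ± 105 CPM with GFP (SD, n = 2 each). The groups overlapped (log2 fold change 0.09 with an SE of 0.14, 95% interval −0.24 to 0.43, adjusted p = 0.756). Its exons overlap those of Ulk4 on the opposite strand. Transcript counts do not measure the stability or location of the protein, on which the pathway acts. Tcf7l2, the TCF factor with the most counts, had 86.6 and 77.2 CPM with ERRγ, against 81.2 and 83.3 CPM with GFP (log2 fold change −0.01, 95% interval −0.32 to 0.31, adjusted p = 0.986). Tcf7l1, mostly a repressor, had 24.5 and 20.1 CPM with ERRγ, against 30.6 and 22.0 CPM with GFP (−0.24, adjusted p = 0.577). Lef1 had 24 and 8 counts with ERRγ, against 33 and 24 counts with GFP (log2 fold change −0.89, adjusted p = 0.438), and leaving out ERRγ library 1 or 2 gave it −1.79 or −0.36. Tcf7 had 11 and 57 counts with ERRγ, against 18 and 17 counts with GFP (log2 fold change 0.96 with an SE of 0.77, adjusted p = 0.509), and its ERRγ libraries lay on either side of the GFP libraries. Without ERRγ library 2 its log2 fold change was −0.77, and without ERRγ library 1 it was 1.74.

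Tcf7 was also the tested member that differed most between the ERRγ libraries, at 5.74 times the CPM in library 2 of that in library 1, against 0.829 times between the GFP libraries. Esrrg itself had 1453 and 12994 counts in ERRγ libraries 1 and 2, a 9.90-fold difference in CPM, and 86 and 107 counts in the GFP libraries (log2 fold change 6.26 with an SE of 1.00, adjusted p = 0.0109). That call ended without GFP library 1 (adjusted p = 0.168), without GFP library 2 (0.127) and with limma-voom (0.0623), and the log2 fold change was 3.81 without ERRγ library 2 and 7.12 without ERRγ library 1. With 1 library at each Esrrg level, that level and any other feature of the library cannot be told apart. Fzd2, Lef1 and Dkk2 were lower in ERRγ library 2 than in ERRγ library 1, at 0.382, 0.369 and 0.448 times its CPM, and also lower in GFP library 2 than in GFP library 1, at 0.525, 0.638 and 0.787 times. Fzd2 had 113 and 39 counts with ERRγ, against 162 and 97 counts with GFP (log2 fold change −0.85, adjusted p = 0.339). Leaving out ERRγ library 1 or 2 gave it −1.71 or −0.32. The summed fibroblast and stellate markers, given above with Sfrp2, were likewise higher in library 1 than in library 2 of each group. Acta2 had 2786 and 859 counts in the ERRγ libraries and 3310 and 1723 in the GFP libraries. Not every marker followed the sum. Lum had 52 and 66 counts in the ERRγ libraries and 81 and 98 in the GFP libraries. Dcn (778 and 780), Col3a1 (986 and 1043) and Thy1 (36 and 56) also had more counts in ERRγ library 2. The part of these markers in Fzd2, Lef1 and Dkk2 was not tested. Over the tested members the median absolute log2 ratio between libraries was 0.35 for the ERRγ pair and 0.26 for the GFP pair, and over all genes tested 0.25 and 0.20.

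**Figure D4:**
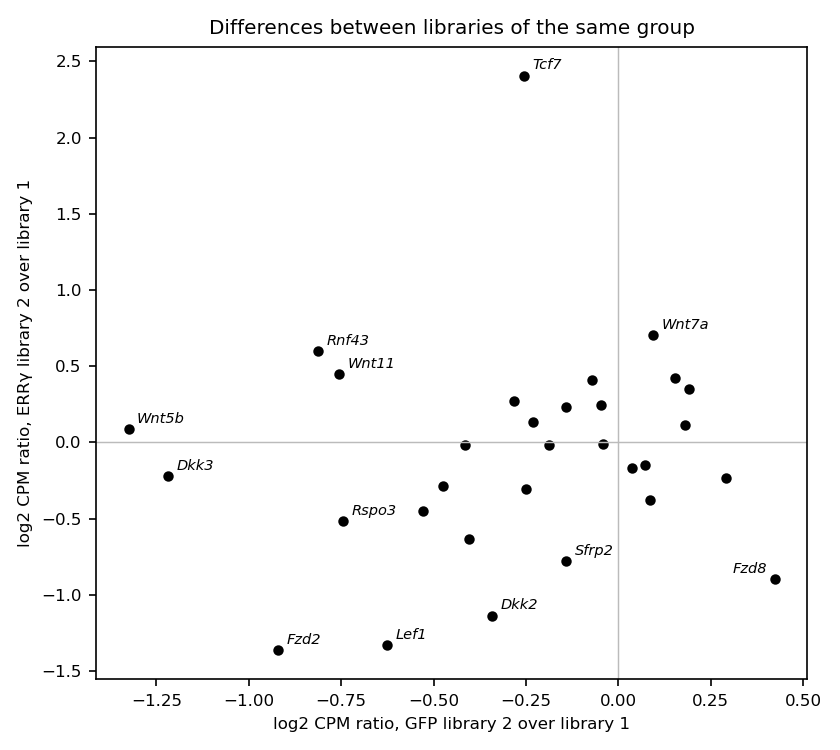
Log2 CPM ratio of library 2 over library 1 for each tested member, within the ERRγ pair (vertical axis) and within the GFP pair (horizontal axis), with 0.1 CPM added; members beyond 0.7 in either direction are named. Tcf7 stands at 2.41 on the vertical axis, and Fzd2, Lef1 and Dkk2 lie below zero on both axes.

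Genes elsewhere in the pathway were taken from 5 lists of 108 distinct genes, of which 89 were tested; 3 rose and 2 fell, or 5.62%, against the 6.84% of all genes. In the list of textbook target genes 3 of 21 rose and 1 fell, or 19%, where 6.84% of all genes were called. The median log2 fold change of this list was −0.05, and the list was not tested as a set. Id2, an inhibitor of helix-loop-helix factors, had 1987 and 1256 counts with ERRγ, against 369 and 519 counts with GFP, a 3.57-fold rise (log2 fold change 1.84 with an SE of 0.20, adjusted p = 0.00283). Tnfrsf19, which encodes the receptor TROY, had 25 and 44 counts with ERRγ, against 1 and 2 counts with GFP, a ratio of 22.6 (95% counting interval, 7.40 to 112; adjusted p = 0.0178); like Sfrp2 it reached 10 counts with ERRγ alone, and so had to differ to be tested. Ephb3, an ephrin receptor, rose 2.37-fold, with 423 and 380 counts with ERRγ, against 109 and 228 counts with GFP (adjusted p = 0.0339), and Epha4 fell, with 1109 and 756 counts with ERRγ, against 1508 and 1578 counts with GFP (log2 fold change −0.77, adjusted p = 0.0339). These target genes respond to other pathways as well and moved in both directions. Among the target genes that did not pass, Nkd1 had 17 and 16 counts with ERRγ, against 0 and 4 counts with GFP (log2 fold change 2.96, adjusted p = 0.125). Nkd1, like Tnfrsf19, reached 10 counts with ERRγ alone, and so had to differ to be tested. Also not passing, Sp5 had 153 and 92 counts with ERRγ, against 239 and 205 counts with GFP (−0.91, adjusted p = 0.0936). The cyclin gene Ccnd1 had 9363 and 7804 counts with ERRγ, against 11093 and 12688 counts with GFP (−0.50, adjusted p = 0.0698). Notum had 1 count in all, and Apcdd1 and Wisp2 had none.

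In the list of co-receptors and planar polarity genes 1 of 14 fell and none rose, or 7.14%, near the 6.84% of all genes. The gene that fell was Vangl1, a core planar polarity protein, with 513 and 392 counts with ERRγ, against 799 and 875 counts with GFP (log2 fold change −0.92 with an SE of 0.15, adjusted p = 0.0108). None of 6 genes of secretion and extracellular control passed; Wls, which carries Wnt proteins to the cell surface, had 1255 and 1265 counts with ERRγ, against 1648 and 1994 counts with GFP (log2 fold change −0.55, adjusted p = 0.0504), and both ERRγ libraries were below both GFP libraries. None of 28 cytoplasmic signalling genes (median log2 fold change 0.07) and none of 21 β-catenin cofactors and repressors (median −0.20) passed. Without GFP library 1 the calls for Id2 (adjusted p = 0.0684), Ephb3 (0.183), Vangl1 (0.133), Tnfrsf19 (0.203) and Epha4 (0.275) ended, and without GFP library 2 those for Vangl1 (0.0977), Tnfrsf19 (0.149) and Epha4 (0.165); with library totals the call for Epha4 ended as well (0.0617).

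**Figure D5:**
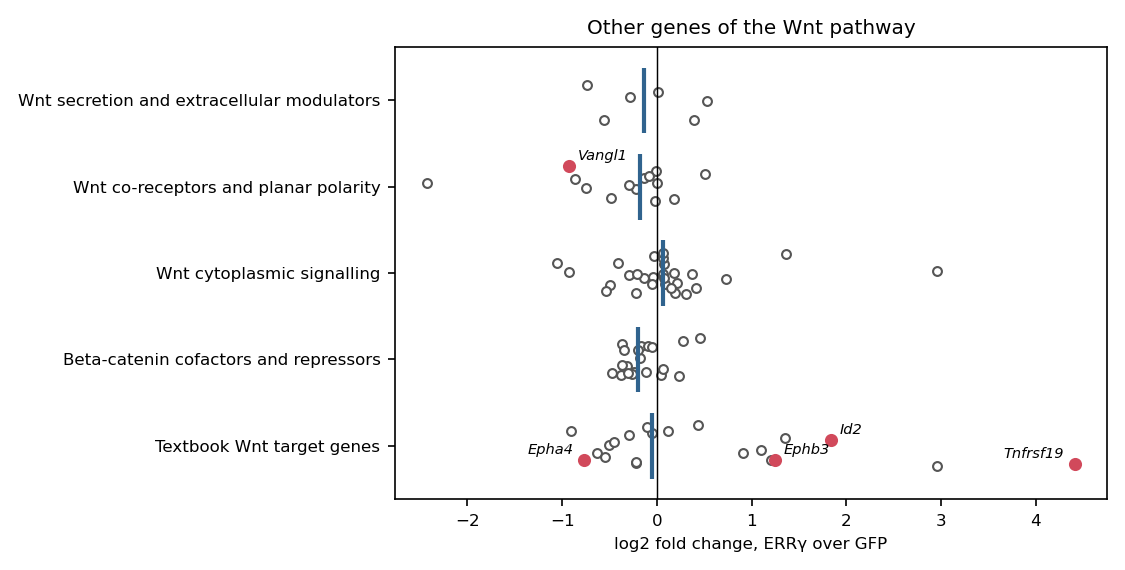
Log2 fold change, ERRγ over GFP, of the tested genes in each of the 5 further pathway lists; filled red points passed at an adjusted p under 0.05 and are named, and blue bars mark the median of each list. The medians lie between −0.20 and 0.07, and 4 of the 5 named genes are in the list of target genes.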

How the data were processed

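Transcript-end (QuantSeq) libraries were made from 500 ng total RNA, 2 for each virus. The authors deposited 1 table of raw read counts per gene symbol for each library, with no normalization. The submitters' processing notes list Bowtie2, edgeR and mm10; the counter, annotation, strand setting and handling of multiply mapped reads are not given in the sources used. Overlapping and antisense genes can therefore share reads. The analysis used R 4.3.3. Rows were kept by filterByExpr with a minimum count of 10 (13070 of 17888 rows with a count), scaled by TMM and tested with edgeR 4.0.16 (glmQLFit with legacy = TRUE, glmQLFTest), with the group alone as the design and Benjamini-Hochberg adjustment over all genes tested at a threshold of 0.05. All tests were two-sided. SE is the size of the log2 fold change divided by the square root of F, and 95% intervals use the t distribution of the fit. Count ratios of genes with few reads have exact counting intervals scaled by library size. The fits were checked on simulated counts in which all genes had the same spread in both groups and changes were placed only at 5 CPM or more. That is a check of the code and does not bear on the calls made here. The alternatives were DESeq2 1.42.0, limma-voom (limma 3.58.1), other scalings and filters, a replicate block and leaving out each library; legacy = FALSE was added after seeing the data. The 56 members and all lists were chosen with earlier results of these data known. The text gives every member with 10 or more counts in a library, the pathway genes past the threshold, and Esrrg as the check of the labels; other genes named were chosen after their values were seen. Positions are from GENCODE M21 on GRCm38, the assembly of mm10, and promoters from RefSeq on GRCm38.p6.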

Additional observations from a re-analysis of the deposited data

How the results depend on the processing

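The 2 calls among members rest on few libraries and on the scaling and filter. Members called, all of them higher with ERRγ, numbered 1 of 31 with library totals (6.57% of all genes called), limma-voom (6.66%) and the replicate block (8.35%), 1 of 20 when a mean of 5 CPM was required (7.91%), and 2 of 31 with DESeq2 (8.89%), DESeq2 size factors (6.8%) and legacy = FALSE (7%). With no filter there were 6 of 51, of which 3 were lower (Wnt7a, Fzd3 and Lrp5, adjusted p = 0.00437, 0.0160 and 0.0331) and Sfrp5 was higher (log2 fold change 4.83), against 11.2% of all genes called (2009 genes, 1271 higher and 738 lower). With 1 library left out, 0 to 7 members were called (0 to 4 higher and 0 to 4 lower), against 99 to 2695 of all genes (92 to 1597 higher and 7 to 1098 lower). The count was 0 without GFP library 1 (0.727% of all genes called) or GFP library 2 (1.02%), when the spread came from the ERRγ pair, 7 without ERRγ library 1 (20%; Tcf7, Wnt7b and Lgr4 higher, Fzd2, Wnt5a, Fzd3 and Dkk2 lower) and 6 without ERRγ library 2 (11.9%; Fzd8, Sfrp5, Lgr4 and Sfrp2 higher, Lrp5 and Wnt7a lower). Without 1 of the ERRγ libraries the spread came from the GFP pair alone, so those calls leave out the spread of the ERRγ pair. The log2 fold change of Wnt7a was −1.005 without ERRγ library 2 and −0.30 without ERRγ library 1. The 5 calls among 89 tested genes of the other pathway lists became 17 of 102 with no filter, where 11.2% of all genes were called. They became 8 of 89 with DESeq2 (8.89% of all genes called) and 8 of 89 with the replicate block (8.35%). Over all tested genes, same-numbered ERRγ and GFP libraries deviated with a correlation of 0.01, which cannot tell whether the numbers pair any samples. With the replicate block 1091 genes were called, and the call for Sfrp2 ended (adjusted p = 0.0558).

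Over 12 alternatives, 22 of the 31 tested members kept their direction in each fit that tested them. With library totals the log2 fold change of Fzd7 was 0.00070 and that of Tcf7l2 0.029. When 1 library was left out, values changed sign for Fzd7 (−0.17 to 0.12), Fzd4 (−0.0029 to 0.54), Dkk3 (−0.35 to 0.92), Znrf3 (−0.046 to 0.20), Axin1 (−0.11 to 0.24), Ctnnb1 (−0.00096 to 0.18), Tcf7l2 (−0.091 to 0.072), Tcf7l1 (−0.46 to 0.016) and Tcf7 (−0.77 to 1.74); none of these 9 was called with all 4 libraries. Depth limits what can be said of members below about 10 counts. The causes of these changes were not tested, beyond the number of genes or libraries that each alternative leaves.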
